A study of Homo sapiens with 12 samples.

Results

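Genes of the NF-kB pathway and genes that NF-kB is known to drive were followed after treatment with SAHM1 in KOPT-K1 and HPB-ALL, 2 human cell lines of T-cell acute lymphoblastic leukaemia (T-ALL). The 35 genes came from a list of pathway parts and known targets that was chosen with earlier results of these data known. Of these, 33 were measured among the 19775 genes that the arrays named singly. TRAF2, an adaptor, and BIRC3, a survival target, had no probe set that carried their symbol alone and were not analysed here. SAHM1 is a hydrocarbon-stapled peptide derived from mastermind-like, a co-activator in the NOTCH transcription complex, and was designed to keep that complex from forming. Both lines carry activated NOTCH1.

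Each line was given SAHM1 at 20 µM or only its solvent, DMSO, for 24 h, which made 4 groups: KOPT-K1 with DMSO, KOPT-K1 with SAHM1, HPB-ALL with DMSO and HPB-ALL with SAHM1. Each group held 3 cultures with 1 Affymetrix array each, 12 arrays in all. The labels call the cultures of a group triplicates and name no separate experiments, and the p-values below reflect only how such cultures vary. The values used here are log2 ratios in which 0 is the mean of the DMSO arrays of that line. The scale holds no level: it shows neither how strongly a gene was expressed nor how the lines differed in DMSO, and the T-cell label could not be checked against the level of its markers.

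NF-kB is a family of dimeric transcription factors built from REL, RELA, RELB and the processed products of NFKB1 and NFKB2. In resting cells IkB proteins such as NFKBIA hold the dimers in the cytoplasm. Kinases of the IKK complex, CHUK and IKBKB, mark IkB for destruction, and the freed dimers enter the nucleus and bind kappa-B sites. Many of the genes they turn on, NFKBIA and TNFAIP3 among them, shut the pathway down again. In T-cell leukaemia, NOTCH1 is known to raise NF-kB activity, and its target HES1 is known to repress CYLD, a brake on the pathway.

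The 7 genes REL, NFKBIA, NFKBIZ, TNFAIP3, LTB, CD83 and IER3 were higher with SAHM1 in at least 1 line in the tests below. The RefSeq promoter table (GRCh38.p14, windows from 250 bases before to 50 bases after a start site) lists 6 of these 7, and all 6 held a match to the kappa-B consensus, searched on both strands. The stretches that hold the match are shown because such sites are what NF-kB is known to bind. Capitals mark the match as read on the gene's own strand, and overlapping matches are joined. TNFAIP3 held 2 separate matches within chr6:137867152-137867253 (plus strand), 67 and 55 bases before the start. In NFKBIA the match lay 81 bases before the start (chr14:35404781-35404870, minus strand). In NFKBIZ the match shown lay 223 bases before the start of its first window (chr3:101827740-101827816, plus strand), and its second window, chr3:101849264-101849563, held another, 239 bases before the start there. REL held 2 overlapping matches, the first 47 bases before the start (chr2:60881487-60881573, plus strand). The match of LTB lay 86 bases before the start (chr6:31582462-31582551, minus strand). In CD83, 1 of 2 windows held overlapping matches, which began 76 bases before the start (chr6:14117656-14117747, plus strand).
TNFAIP3: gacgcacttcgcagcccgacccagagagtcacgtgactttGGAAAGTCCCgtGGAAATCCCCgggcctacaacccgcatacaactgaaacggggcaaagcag
NFKBIA: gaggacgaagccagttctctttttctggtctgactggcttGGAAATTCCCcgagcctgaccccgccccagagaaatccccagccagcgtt
NFKBIZ: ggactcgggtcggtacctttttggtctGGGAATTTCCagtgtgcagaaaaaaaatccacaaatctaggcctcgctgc
REL: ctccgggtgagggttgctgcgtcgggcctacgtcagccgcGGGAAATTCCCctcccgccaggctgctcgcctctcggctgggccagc
LTB: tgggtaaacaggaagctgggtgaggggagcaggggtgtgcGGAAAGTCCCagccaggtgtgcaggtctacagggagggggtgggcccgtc
CD83: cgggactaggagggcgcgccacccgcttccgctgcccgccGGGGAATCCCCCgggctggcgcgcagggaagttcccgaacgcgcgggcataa

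A match was found in 2075 of 35116 promoter windows of that length, or 5.91%, and in 1937 of 27305 genes, or 7.09%. The share was 51.7% over the genes of the list, 15 of the 29 that the table lists. Of the 7 genes that were lower in a line, 6 were listed and 3 held a match, NFKB1, TRAF3 and CFLAR, the last in 1 of its 4 windows. RELA, CHUK and MALT1 held none in these windows. Among listed genes that were called in neither line, 5 of 15 held a match (33.3%). The list was built from known NF-kB targets, so its share of matches is a description, and a match does not show that the site was bound.

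SAHM1 changed 9 of the 33 genes in KOPT-K1 and 6 in HPB-ALL, where a change is a Benjamini-Hochberg adjusted p under 0.05 over all genes in limma. In KOPT-K1, NFKBIA, TNFAIP3, IER3 and CD83 rose, and RELA, CHUK, IKBKB, MALT1 and CFLAR fell. In HPB-ALL, REL, NFKBIZ, TNFAIP3 and LTB rose, and NFKB1 and TRAF3 fell. TNFAIP3, which encodes the ubiquitin-editing inhibitor A20, was the 1 gene called in both lines. No gene of the list moved by 0.5 or more on the log2 scale in either line.

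In KOPT-K1, 27.3% of the 33 genes were called beside 19% of all genes; the 4 that rose stand beside 5.85% of all genes called higher, and the 5 that fell beside 13.2% called lower. In HPB-ALL, 18.2% of the 33 were called beside 9.34% of all genes, with 4.96% of all genes higher and 4.38% lower. The median difference of the 33 genes was -0.06 in KOPT-K1, with 0.00 over all genes, and -0.05 in HPB-ALL, with -0.02 over all genes. SAHM1 and DMSO arrays did not overlap for 13 of the 33 genes in KOPT-K1, where 35.1% of all genes did not, and for 17 in HPB-ALL, where 29.1% did not. The sign of the response was the same in both lines for 17 of the 33.

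By role, the calls in KOPT-K1 were lower for pathway parts and mostly higher for feedback and target genes. Of the 13 measured pathway parts (subunits, kinases and adaptors), 4 fell and 0 rose in KOPT-K1, with a median of -0.17, while in HPB-ALL 2 fell and 1 rose, with a median of -0.08. Of the 20 measured inhibitors, feedback genes and targets, 4 rose and 1 fell in KOPT-K1, with a median of 0.09, while in HPB-ALL 3 rose and 0 fell, with a median of -0.03. Of all genes, 13.2% were called lower and 5.85% higher in KOPT-K1, so calls there leaned lower in general. In HPB-ALL 4.38% were called lower and 4.96% higher. The medians stand beside 0.00 and -0.02 over all genes, and the difference between the roles was not tested.

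**Figure D1:**
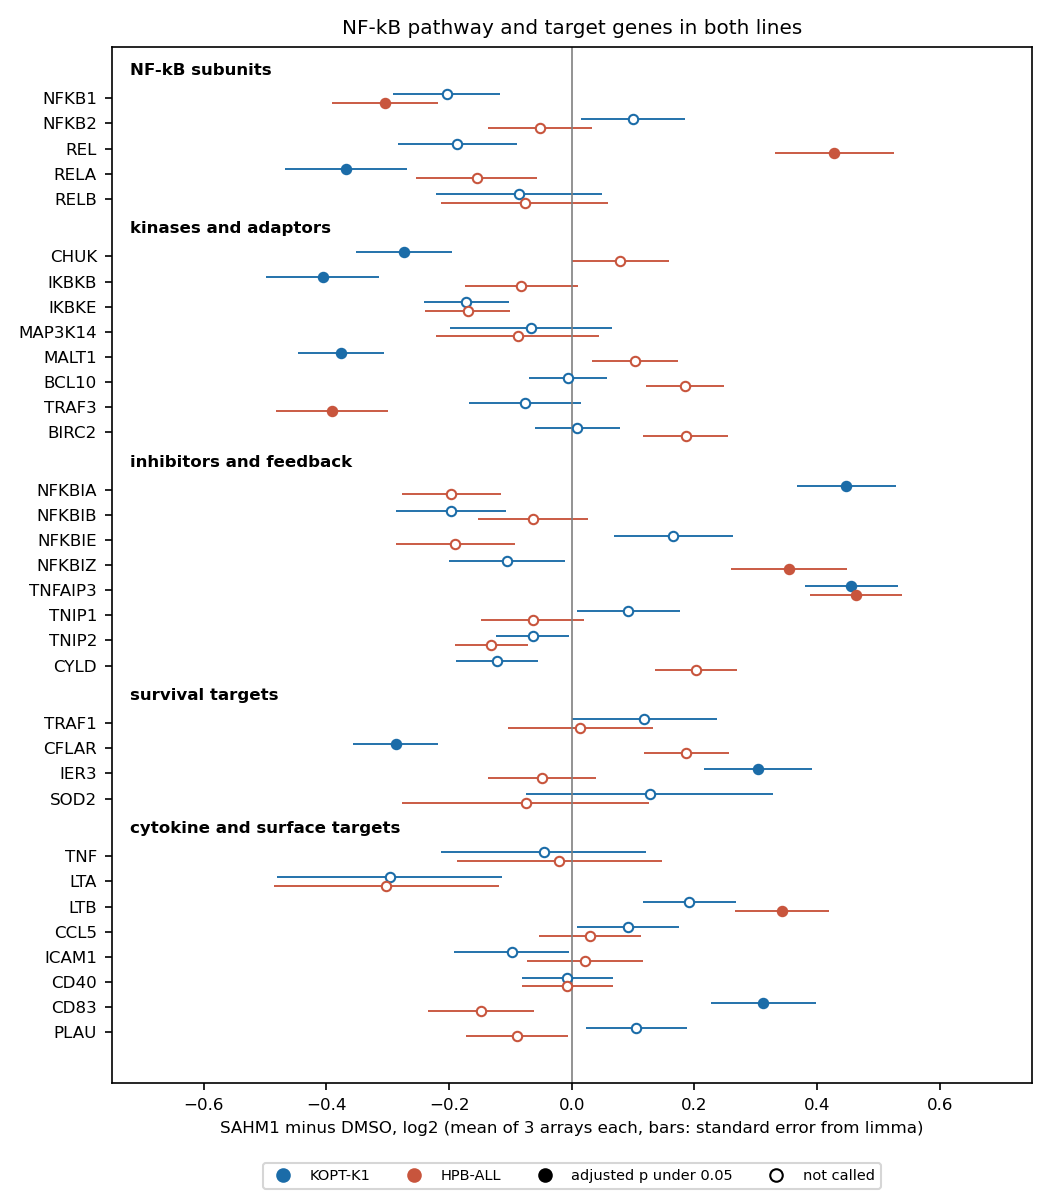
Difference between SAHM1 and DMSO (x axis, log2, mean of 3 arrays in each group) for the 33 measured genes, grouped by role, in KOPT-K1 (blue) and HPB-ALL (red). Bars are standard errors from limma and filled points have an adjusted p under 0.05; TNFAIP3 is the gene filled in both lines, at 0.46 in each.

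Some array-wide measures moved with treatment beside all of these calls. In HPB-ALL the log2 ratio of 18S ribosomal RNA (3 probe sets) was 2.19 higher with SAHM1. It varied from -1.65 to 1.05 among the DMSO arrays of that line, and the SAHM1 arrays, at 1.35 to 1.89, all lay above them. In KOPT-K1 the 18S difference was -0.26. The 18 spike-in control probe sets were 0.83 higher with SAHM1 in KOPT-K1, with DMSO arrays from -0.02 to 0.01 and SAHM1 arrays from 0.60 to 1.05, and the difference was -0.39 in HPB-ALL. With the 18S level in the fit, 9 genes of the list were called in KOPT-K1, beside 17.7% of all genes, and 0 in HPB-ALL, beside 0.263%. With the spike level in the fit, 1 and 2 were called, beside 3.59% and 5.21% of all genes. The spike level separated the 2 treatments in KOPT-K1, and the 18S level did so in HPB-ALL. A fit cannot fully tell such a level from SAHM1 there, so a lost call does not show that the response was technical. Errors also widened, to ± 0.14 for RELA in KOPT-K1 with the spike level and ± 0.15 for NFKB1 in HPB-ALL with the 18S level. The HPB-ALL differences with the 18S level in the fit were -0.37 for NFKB1, 0.44 for NFKBIZ, 0.39 for LTB, -0.35 for TRAF3, 0.37 for TNFAIP3 and 0.14 for REL. With quantile normalization between arrays, 0 were called in either line, where 136 and 417 of all genes were (0.688% and 2.11%). That setting gives every array the same distribution. Before it, the interquartile range over all genes was 0.11 to 0.14 in DMSO arrays and 0.22 to 0.31 in SAHM1 arrays. The part that these measures had in the responses beyond those fits was not tested. Of the 10 T-cell markers, CD28 fell in KOPT-K1 by 0.24, and in HPB-ALL CD3G was 0.71 higher while CD7, LCK and CD247 fell by 0.51, 0.22 and 0.27. That is 10% called in KOPT-K1, beside 19% of all genes, and 40% in HPB-ALL, beside 9.34%. In KOPT-K1 8 of the 10 were below 0, with a median of -0.15 and the lowest, not called, at -0.50. In HPB-ALL 9 were below 0, with a median of -0.10. Of the 5 measured B-cell markers MS4A1 rose by 0.32 in KOPT-K1, and of the 5 measured myeloid markers 0 changed in either line. The part of cell identity in the NF-kB genes was not tested.

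Among the subunits, RELA fell in KOPT-K1, and in HPB-ALL NFKB1 fell while REL rose. RELA encodes p65, the main activating subunit of the canonical dimer. In KOPT-K1 its log2 ratio was 0.09, -0.10 and -0.01 with DMSO and -0.13, -0.42 and -0.57 with SAHM1. All SAHM1 arrays lay below all DMSO arrays, the first of them narrowly. The difference was -0.37 ± 0.10 (SE, n = 3 arrays in each group; limma adjusted p = 0.0213). In HPB-ALL RELA was at -0.04, -0.04 and 0.07 with DMSO and -0.07, -0.25 and -0.15 with SAHM1, which gave -0.16 ± 0.10 (limma adjusted p = 0.413). Its 2 probe sets gave -0.49 (called) and -0.24 in KOPT-K1, and -0.35 and 0.04 in HPB-ALL.

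NFKB1, the source of p105 and p50, was measured by 1 probe set. In HPB-ALL it was at 0.06, 0.02 and -0.08 with DMSO and at -0.37, -0.31 and -0.24 with SAHM1. The SAHM1 arrays were all lower, by 0.30 ± 0.09 (SE; a difference of -0.30, limma adjusted p = 0.0454). In KOPT-K1 the DMSO arrays were spread over 0.18, -0.20 and -0.00 and overlapped the SAHM1 arrays at -0.27, -0.19 and -0.17, with a difference of -0.20 ± 0.09 (limma adjusted p = 0.122). Without KOPT-K1 DMSO array 2 it was -0.30 and called.

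REL encodes c-Rel, a subunit best known in lymphocytes. Its HPB-ALL values were 0.20, -0.23 and -0.10 with DMSO and 0.43, 0.41 and 0.31 with SAHM1, all above DMSO. The difference was 0.43 ± 0.10 (limma adjusted p = 0.0157). It rested largely on 1 of its 5 probe sets, which gave 1.57 (called), while the other 4 gave 0.07 to 0.19 and were not called; with the median of probe sets in place of the mean, or with the 18S level in the fit, REL was at 0.17 and 0.14 and no longer called. In KOPT-K1 REL was at 0.07, -0.11 and 0.01 with DMSO and at -0.25, -0.22 and -0.12 with SAHM1. Those groups did not overlap, but the difference of -0.19 ± 0.10 did not pass (limma adjusted p = 0.201); 2 single probe sets were called there, at -0.48 and -0.32. With the median of probe sets REL was at -0.34 ± 0.07 in KOPT-K1 and was called (limma adjusted p = 0.00812, within 0.00812 to 0.853 over the alternatives for REL in KOPT-K1).

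The subunits of the alternative branch did not pass the test in either line. NFKB2, the source of p52, was at 0.10 ± 0.08 in KOPT-K1 and -0.05 ± 0.08 in HPB-ALL. RELB, its partner, was at -0.09 ± 0.14 and -0.08 ± 0.14. Single arrays decided some of the subunit calls. The RELA call was lost without KOPT-K1 DMSO array 1 or 3 or SAHM1 array 2 or 3, at -0.37 to -0.27. That of REL was lost without HPB-ALL DMSO array 2 or 3 or SAHM1 array 1 or 2, at 0.34 to 0.42. That of NFKB1 was lost without any 1 of the 6 HPB-ALL arrays, KOPT-K1 DMSO array 3 or any of the 3 KOPT-K1 SAHM1 arrays, at -0.35 to -0.27.

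Among the kinases and adaptors, 3 of 8 fell in KOPT-K1, beside 13.2% of all genes called lower. In HPB-ALL 1 of 8 fell, beside 4.38%, and 0 rose in either line. IKBKB, the IKK-beta kinase of the canonical branch, was at 0.11, -0.08 and -0.04 with DMSO in KOPT-K1 and at -0.26, -0.48 and -0.49 with SAHM1. The groups stood well apart, with a difference of -0.41 ± 0.09 (limma adjusted p = 0.00924). Its 3 probe sets gave -0.35 and -0.45, both called, and -0.42, not called. In HPB-ALL the DMSO arrays at 0.06, -0.07 and -0.00 overlapped the SAHM1 arrays at -0.21, -0.15 and 0.10, and the difference was -0.08 ± 0.09.

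CHUK encodes IKK-alpha, the partner of IKBKB and the kinase of the alternative branch. In KOPT-K1 it was at 0.08, 0.01 and -0.09 with DMSO and at -0.22, -0.18 and -0.42 with SAHM1, with no overlap. The difference was -0.27 ± 0.08 (limma adjusted p = 0.0296, from 1 probe set). In HPB-ALL it was at 0.04, -0.12 and 0.07 with DMSO and 0.08, 0.04 and 0.11 with SAHM1. Those groups overlapped, and the difference was 0.08 ± 0.08 (limma adjusted p = 0.634).

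MALT1, the paracaspase that carries antigen-receptor signals to IKK, fell in KOPT-K1. Its log2 ratio there was 0.06, 0.03 and -0.10 with DMSO and -0.38, -0.46 and -0.29 with SAHM1. The groups were clearly separate, at -0.38 ± 0.07 (limma adjusted p = 0.00324), and its 3 probe sets gave -0.48 (called), -0.32 (called) and -0.32 (not called). Its HPB-ALL values were 0.04, -0.06 and 0.01 with DMSO and 0.02, 0.09 and 0.19 with SAHM1, overlapping, at 0.10 ± 0.07 (limma adjusted p = 0.453). BCL10, the partner of MALT1, was at -0.01 ± 0.06 in KOPT-K1 and 0.18 ± 0.06 in HPB-ALL, neither of which passed (limma adjusted p = 0.961 and 0.0943). Of its 3 probe sets 1 was called in HPB-ALL, at 0.43.

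TRAF3, the adaptor that keeps the alternative-branch kinase MAP3K14 low, fell in HPB-ALL. It was at 0.01, -0.05 and 0.04 with DMSO and at -0.40, -0.40 and -0.37 with SAHM1. The SAHM1 arrays were tightly grouped and all lower, at -0.39 ± 0.09 (limma adjusted p = 0.0186). Its 2 probe sets gave -0.37 (called) and -0.41 (not called). In KOPT-K1 the DMSO arrays at 0.14, 0.03 and -0.20 overlapped the SAHM1 arrays at 0.09, -0.14 and -0.20, with a difference of -0.08 ± 0.09. MAP3K14 itself was at -0.07 ± 0.13 in KOPT-K1 and -0.09 ± 0.13 in HPB-ALL.

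IKBKE, an IKK-related kinase, was not called in either line alone. Its KOPT-K1 values were 0.04, -0.05 and 0.01 with DMSO and -0.30, -0.10 and -0.11 with SAHM1; in HPB-ALL it was at 0.06, -0.00 and -0.07 with DMSO and at -0.20, -0.23 and -0.10 with SAHM1. The SAHM1 arrays lay below the DMSO arrays in both lines, at -0.17 ± 0.07 in each, and its 2 probe sets were called in neither. BIRC2, the ubiquitin ligase cIAP1, was at 0.01 ± 0.07 and 0.19 ± 0.07. Of the calls in this role, those of IKBKB and MALT1 held in all 12 fits that each left out 1 array. That of CHUK was lost without KOPT-K1 DMSO array 1 or 2 or SAHM1 array 3, at -0.27 to -0.20. That of TRAF3 was lost without HPB-ALL DMSO array 3 or any 1 of the 3 HPB-ALL SAHM1 arrays, at -0.40 to -0.37.

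Among the 8 inhibitors and feedback genes, 2 rose in KOPT-K1 and 2 in HPB-ALL, with TNFAIP3 in both, and 0 fell. Of all genes, 5.85% were called higher in KOPT-K1 and 4.96% in HPB-ALL. TNFAIP3, which ends NF-kB signalling and is itself induced by it, was at 0.01, -0.04 and 0.02 with DMSO in KOPT-K1 and at 0.48, 0.34 and 0.53 with SAHM1. In HPB-ALL it was at 0.10, -0.14 and 0.03 with DMSO and at 0.53, 0.40 and 0.45 with SAHM1. Every SAHM1 array of either line was above every DMSO array of that line. The rise was 0.46 ± 0.08 in KOPT-K1 (1.37-fold, limma adjusted p = 0.00154) and 0.46 ± 0.08 in HPB-ALL (1.38-fold, limma adjusted p = 0.00251). Its 2 probe sets gave 0.42 and 0.49 in KOPT-K1 and 0.43 and 0.49 in HPB-ALL, all called, and the call held in all 12 fits without 1 array in both lines.

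NFKBIA encodes IkB-alpha, the inhibitor that NF-kB resynthesises after each activation. In KOPT-K1 it was at -0.04, 0.11 and -0.08 with DMSO and at 0.35, 0.38 and 0.60 with SAHM1, far apart, and rose by 0.45 ± 0.08 (1.36-fold, limma adjusted p = 0.00268). Its HPB-ALL values were -0.04, 0.07 and -0.04 with DMSO and -0.25, -0.24 and -0.10 with SAHM1, all below DMSO, but the difference of -0.20 ± 0.08 did not pass (limma adjusted p = 0.17). Its 2 probe sets gave 0.63 (called) and 0.26 in KOPT-K1, and -0.12 and -0.27 in HPB-ALL. The KOPT-K1 call held in all 12 fits without 1 array.

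NFKBIZ encodes IkB-zeta, a nuclear IkB protein that acts on secondary target genes. In HPB-ALL it was at -0.01, -0.12 and 0.12 with DMSO and at 0.32, 0.38 and 0.35 with SAHM1. The SAHM1 arrays were close together and all higher, by 0.35 ± 0.09 (limma adjusted p = 0.0345), though its 2 probe sets, at 0.30 and 0.41, were not called singly. In KOPT-K1 the DMSO arrays at 0.17, -0.14 and -0.06 overlapped the SAHM1 arrays at 0.02, -0.26 and -0.11, with a difference of -0.11 ± 0.09. The HPB-ALL call was lost without DMSO array 1 or 2 of that line or any 1 of its SAHM1 arrays, at 0.29 to 0.37.

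CYLD, the deubiquitinase that restrains IKK, passed the test in neither line. Its KOPT-K1 values were 0.11, -0.03 and -0.10 with DMSO and -0.12, -0.19 and -0.08 with SAHM1, with overlapping groups and a difference of -0.12 ± 0.07 (limma adjusted p = 0.228). Its HPB-ALL values were 0.06, -0.07 and -0.01 with DMSO and 0.19, 0.17 and 0.22 with SAHM1. All SAHM1 arrays there were higher, by 0.20 ± 0.07, short of the threshold (limma adjusted p = 0.082); with array quality weights it was 0.20 and called. Of its 7 probe sets 1 was called in KOPT-K1, at -0.55, and a different 1 in HPB-ALL, at 0.83.

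The other inhibitors did not pass in either line. NFKBIB, or IkB-beta, was at -0.20 ± 0.09 in KOPT-K1 and -0.06 ± 0.09 in HPB-ALL. NFKBIE, or IkB-epsilon, was at 0.17 ± 0.10 and -0.19 ± 0.10. Of the A20-binding proteins, TNIP1 was at 0.09 ± 0.08 in KOPT-K1 with -0.06 ± 0.08 in HPB-ALL, and TNIP2 at -0.06 ± 0.06 with -0.13 ± 0.06.

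**Figure D2:**
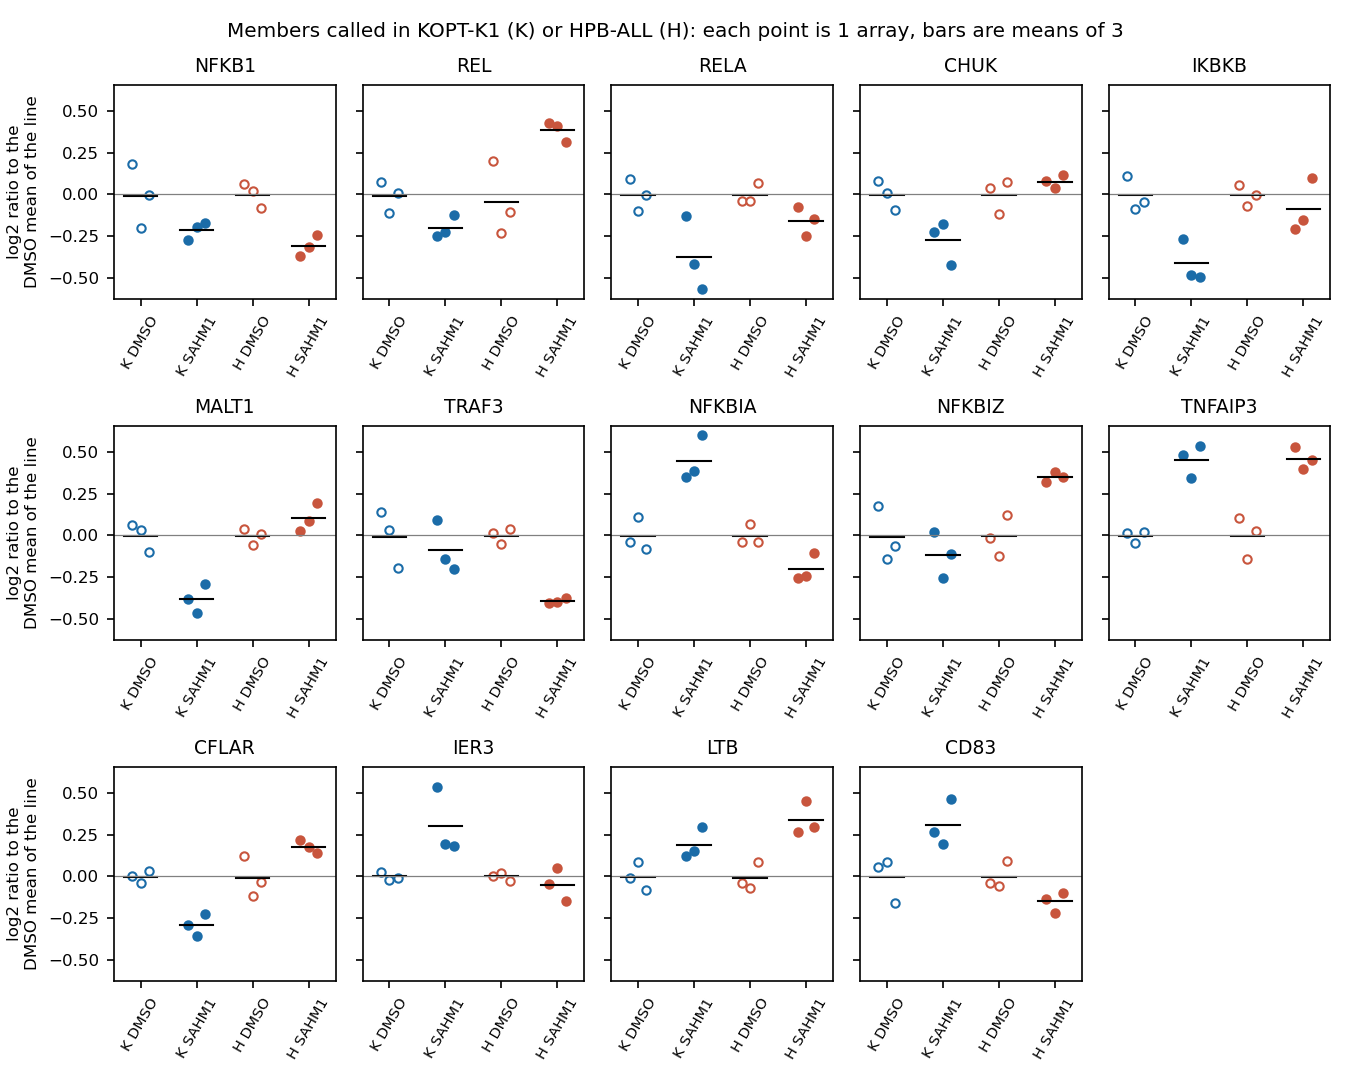
Log2 ratio to the DMSO mean of the same line (y axis) in each of the 12 arrays for the 14 genes called in at least 1 line; K is KOPT-K1, H is HPB-ALL, each point is 1 array and the bar is the mean of 3. TNFAIP3 lies between 0.34 and 0.53 in all 6 SAHM1 arrays, while REL, NFKBIA and CFLAR lie on opposite sides of 0 in the SAHM1 arrays of the 2 lines.

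Of the 4 measured survival targets, 1 rose and 1 fell in KOPT-K1, and 0 changed in HPB-ALL. The shares of all genes called were 19% and 9.34%. CFLAR encodes c-FLIP, which blocks caspase activation at death receptors. In KOPT-K1 it was at 0.00, -0.04 and 0.03 with DMSO and at -0.29, -0.35 and -0.22 with SAHM1, with a wide gap between the groups, and fell by 0.29 ± 0.07 (a difference of -0.29, limma adjusted p = 0.0126). In HPB-ALL it was at 0.12, -0.12 and -0.03 with DMSO and at 0.22, 0.18 and 0.14 with SAHM1. The SAHM1 arrays were all above DMSO, but the difference of 0.19 ± 0.07 did not pass (limma adjusted p = 0.123). Without HPB-ALL DMSO array 1 it was 0.25 and called.

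The probe sets of CFLAR did not move alike. Of its 14 probe sets 6 were called in KOPT-K1, at -0.73 to -0.47, and the full range there was -0.73 to 0.24; in HPB-ALL 1 was called, within a range of -0.22 to 0.40. All 6 called in KOPT-K1 had the suffix _x_at or _s_at, which Affymetrix gives to probe sets that can match more than 1 transcript, and without such probe sets CFLAR was at -0.04.

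IER3, an early-response gene known to protect cells from apoptosis, rose in KOPT-K1. It was at 0.03, -0.02 and -0.01 with DMSO and at 0.53, 0.19 and 0.18 with SAHM1, so that 1 array stood well above the other two. The difference was 0.30 ± 0.09 (limma adjusted p = 0.031, from 1 probe set), and without that SAHM1 array 1 it was 0.19 and not called. The call was also lost without any 1 of the 3 KOPT-K1 DMSO arrays, at 0.29 to 0.32. In HPB-ALL the DMSO arrays at 0.00, 0.02 and -0.02 overlapped the SAHM1 arrays at -0.05, 0.05 and -0.15. TRAF1, a TNF receptor adaptor, was at 0.12 ± 0.12 in KOPT-K1 and 0.01 ± 0.12 in HPB-ALL. SOD2, the mitochondrial superoxide dismutase, was at 0.13 ± 0.20 and -0.07 ± 0.20, the widest error of the list.

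Of the 8 cytokine and surface targets, 1 rose in each line and 0 fell. The shares of all genes called higher were 5.85% in KOPT-K1 and 4.96% in HPB-ALL. CD83, a surface glycoprotein of activated lymphocytes and dendritic cells, was at 0.06, 0.09 and -0.16 with DMSO in KOPT-K1 and at 0.27, 0.20 and 0.46 with SAHM1. The groups did not overlap, and CD83 rose by 0.31 ± 0.09 (limma adjusted p = 0.0242, from 1 probe set). Its HPB-ALL values were -0.04, -0.05 and 0.09 with DMSO and -0.13, -0.22 and -0.10 with SAHM1. All SAHM1 arrays there were below DMSO, at -0.15 ± 0.09 (limma adjusted p = 0.361). The KOPT-K1 call was lost without DMSO array 3 or SAHM1 array 3 of that line, at 0.24 in each case.

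LTB encodes lymphotoxin-beta, a membrane-bound TNF family ligand of lymphocytes. In HPB-ALL it was at -0.04, -0.07 and 0.09 with DMSO and at 0.27, 0.45 and 0.29 with SAHM1, with no overlap, and rose by 0.34 ± 0.08 (limma adjusted p = 0.0145). Its KOPT-K1 values were -0.01, 0.08 and -0.08 with DMSO and 0.12, 0.15 and 0.29 with SAHM1. Those groups did not overlap either, at 0.19 ± 0.08 (limma adjusted p = 0.0983). Its 2 probe sets disagreed: 1 gave 0.66 in KOPT-K1 and 0.58 in HPB-ALL, both called, and the other gave -0.27 and 0.11, neither called. The HPB-ALL call was lost without DMSO array 2 or SAHM1 array 2 of that line, at 0.31 and 0.29.

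LTB shares a stretch of chromosome 6 with LTA and TNF, chr6:31560610-31582425 in GRCh38.p14, and those neighbours did not pass the test. LTA, the secreted lymphotoxin, was at -0.30 ± 0.18 in both lines (limma adjusted p = 0.288 and 0.386). TNF was at -0.05 ± 0.17 in KOPT-K1 and -0.02 ± 0.17 in HPB-ALL. The chemokine CCL5 was at 0.09 ± 0.08 and 0.03 ± 0.08. ICAM1, an adhesion molecule, was at -0.10 ± 0.09 and 0.02 ± 0.09. CD40, a receptor that signals to NF-kB, was at -0.01 ± 0.07 in both lines, and PLAU, the urokinase, at 0.11 ± 0.08 and -0.09 ± 0.08.

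**Figure D3:**
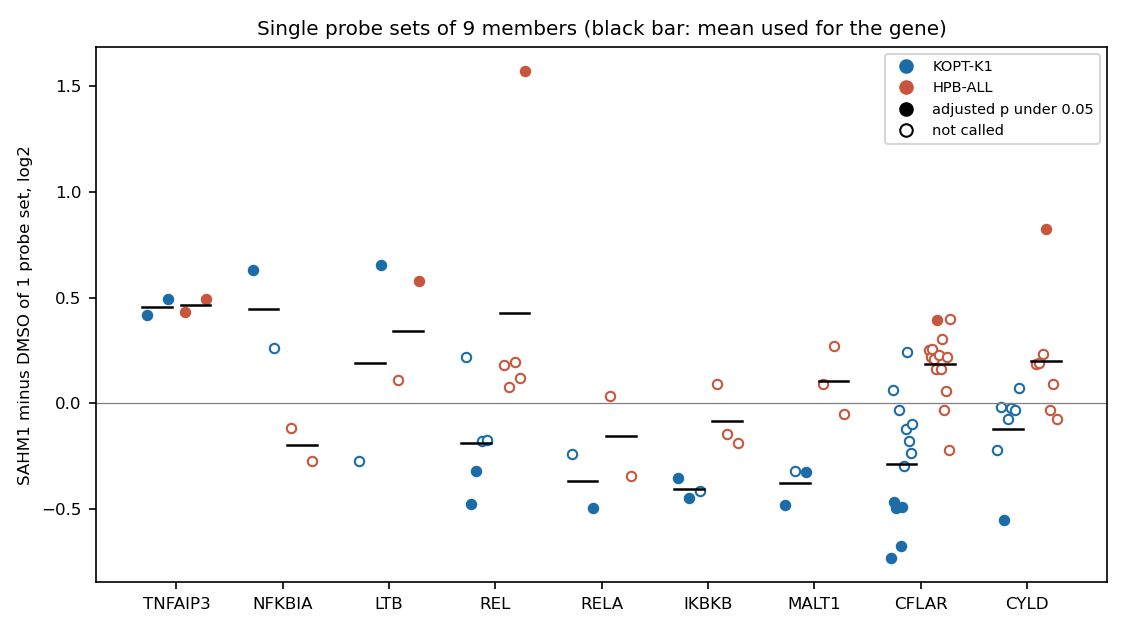
Difference between SAHM1 and DMSO (y axis, log2) of each single probe set of 9 genes in KOPT-K1 (blue) and HPB-ALL (red); filled points have an adjusted p under 0.05 over all probe sets and black bars are the means used for the gene. The 2 probe sets of TNFAIP3 lie within 0.42 to 0.49 in both lines, while in HPB-ALL 1 probe set of REL, at 1.57, lies far from the other 4.

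In the mean of both lines 7 of the 33 genes were called, 2 higher and 5 lower, beside 11.3% of all genes, 3.16% higher and 8.13% lower. TNFAIP3 rose by 0.46 ± 0.05 (limma adjusted p = 0.00021) and LTB by 0.27 ± 0.05 (limma adjusted p = 0.00706). NFKB1 was at -0.25 ± 0.06, RELA at -0.26 ± 0.07, IKBKB at -0.24 ± 0.07, TRAF3 at -0.23 ± 0.06 and IKBKE at -0.17 ± 0.05, with limma adjusted p from 0.0183 to 0.0415. All 5 that fell are parts of the pathway and both that rose are feedback or target genes. TNFAIP3 kept its call in all 7 other settings that gave a value for its mean; both of its probe sets have the suffix _s_at, so the setting without such probe sets gave none. In that setting LTB was at -0.082 in the mean, and it also lost its call with quantile normalization, at 0.21. NFKB1, RELA, IKBKB, TRAF3 and IKBKE all lost their calls with quantile normalization, at -0.21 to -0.13, and with the 18S level in the fit, at -0.28 to -0.21. All of these but NFKB1 also lost theirs with the spike level in the fit. In the fits without 1 array, TNFAIP3, LTB and NFKB1 kept their calls in all 12. IKBKB lost its call without KOPT-K1 DMSO array 1 or SAHM1 array 2 or 3, or HPB-ALL DMSO array 1 or 3 or SAHM1 array 1 or 2, at -0.24 to -0.21. RELA lost its call without KOPT-K1 DMSO array 1 or 3 or SAHM1 array 2 or 3, or HPB-ALL DMSO array 3 or SAHM1 array 2 or 3, at -0.26 to -0.21. TRAF3 kept its call without KOPT-K1 DMSO array 3, KOPT-K1 SAHM1 array 1 or HPB-ALL DMSO array 2 and lost it without any of the 9 others, at -0.24 to -0.20. IKBKE kept its call without KOPT-K1 SAHM1 array 2 or 3 or HPB-ALL SAHM1 array 3 and lost it without any of the 9 others, at -0.19 to -0.14.

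The response differed between the lines for 8 of the 33 genes, by a test of the difference itself (HPB-ALL response minus KOPT-K1 response), beside 16.8% of all genes. It was more positive in HPB-ALL for 6, beside 11.4% of all genes, and more negative for 2, beside 5.41%. NFKBIA had the largest difference of the list, -0.64 ± 0.11 (limma adjusted p = 0.0028), followed by REL at 0.61 ± 0.14 (limma adjusted p = 0.00936). MALT1 was at 0.48 ± 0.10, CFLAR at 0.47 ± 0.10, NFKBIZ at 0.46 ± 0.13 and CD83 at -0.46 ± 0.12, with limma adjusted p from 0.00637 to 0.0343. CHUK was at 0.35 ± 0.11 and CYLD at 0.32 ± 0.09 (limma adjusted p = 0.0471 and 0.034). For each of these 8 genes the responses of the lines had opposite signs, but no gene of the 8 was called in both lines, and CYLD was called in neither. The 8 were picked by a large difference, which favours opposite signs, so the signs are not a separate result. By contrast the difference for TNFAIP3 was 0.01 ± 0.11 (limma adjusted p = 0.972). None of the 8 was called with quantile normalization, or with the 18S or the spike level in the fit, settings in which 1.07%, 1.64% and 1.27% of all genes were called. With the 18S level in the fit CHUK was at 0.36, MALT1 at 0.47, NFKBIA at -0.59 and NFKBIZ at 0.56, while REL was at 0.29, CFLAR at 0.30, CYLD at 0.28 and CD83 at -0.34. With the spike level CD83 was at -0.49 and NFKBIA at -0.51, and CHUK at 0.13 and NFKBIZ at 0.24. Without _x_at and _s_at probe sets CFLAR was at 0.20, NFKBIA at -0.54 and CYLD at 0.25, none of them called.

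**Figure D4:**
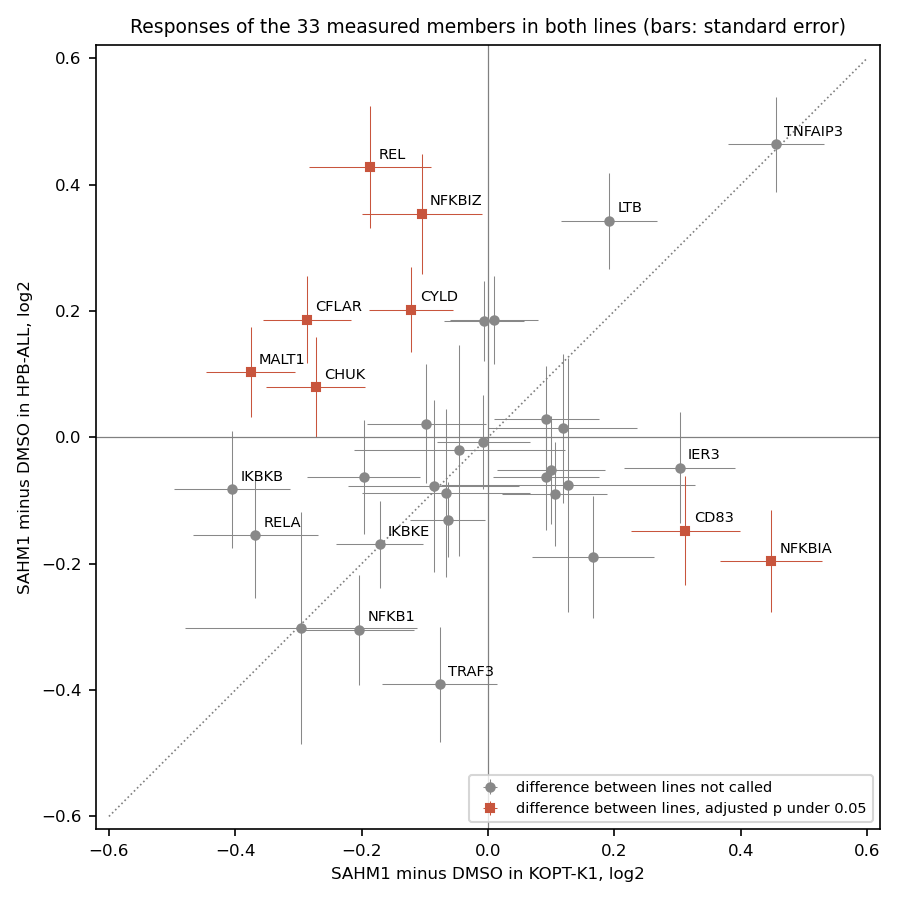
Response to SAHM1 (SAHM1 minus DMSO, log2) in KOPT-K1 (x axis) against HPB-ALL (y axis) for the 33 measured genes, with standard errors; the dotted line marks equal responses. TNFAIP3 lies on that line at 0.46, and the 8 red squares, whose responses differed between lines, lie in the 2 quadrants of opposite sign. No gene of the 8 was called in both lines.

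Wider lists set these genes beside the rest of the pathway. Of 30 other pathway parts 26 were measured: in KOPT-K1 1 rose and 1 fell, and in HPB-ALL 1 rose and 1 fell. That is 7.69% in each line, beside 19% of all genes in KOPT-K1 and 9.34% in HPB-ALL. TANK, an adaptor of the IKK-related kinases, rose in KOPT-K1 by 0.28 ± 0.08 (limma adjusted p = 0.0364) and was at 0.23 ± 0.08 in HPB-ALL. XIAP, an inhibitor of apoptosis, was at -0.27 ± 0.08 in KOPT-K1 (limma adjusted p = 0.0256) and 0.15 ± 0.08 in HPB-ALL. In HPB-ALL TNFSF13B, the ligand BAFF, rose by 0.65 ± 0.10 (limma adjusted p = 0.00151), and the adaptor TRAF5 was at -0.37 ± 0.08 (limma adjusted p = 0.00939), with 0.07 ± 0.10 and -0.23 ± 0.08 in KOPT-K1.

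Of 23 other target genes 21 were measured: 0 rose and 1 fell in KOPT-K1 (4.76%, beside 19% of all genes), and 2 rose and 1 fell in HPB-ALL (14.3%, beside 9.34%). TNFAIP8, a regulator of cell death, was at -0.28 ± 0.06 in KOPT-K1 (limma adjusted p = 0.00407) and 0.08 ± 0.06 in HPB-ALL. In HPB-ALL the stress gene GADD45B rose by 0.36 ± 0.06 (limma adjusted p = 0.00252) and the death receptor FAS by 0.30 ± 0.07 (limma adjusted p = 0.0183). IRF1, a transcription factor of the interferon response, was at -0.43 ± 0.08 there (limma adjusted p = 0.0040) and at -0.21 ± 0.08 in KOPT-K1. The medians of the wider lists lay between -0.03 and 0.01 in both lines.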

How the data were processed

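The 12 arrays, in 4 groups of 3 cultures, were analysed. The submitters' processing notes name RMA; the version is not given in the sources used here. In the deposited file each value is a linear ratio: per the values themselves, the DMSO arrays of a line average 1 in 54675 of 54675 probe sets, within 1e-06, so levels are lost and no filter on low values was possible. Their log2 was taken with no pseudocount. Of the probe sets, 41097 carried 1 symbol, 1801 several and 11777 none; 41043 matched RefSeq by gene ID, with 0 symbols changed. Each gene is the mean of its probe sets. The 33 genes rested on 85 probe sets, from 1 to 14 each. SOD2 rests on 1. Across the list, 4 probe sets that name a gene of it beside another symbol were not used.

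limma 3.58.1 in R 4.3.3 (lmFit, eBayes) was fitted to all genes and arrays with 4 group terms (8 residual degrees of freedom; 12.6 once moderated). Its p-values are two-sided and Benjamini-Hochberg adjusted over 19775 genes, or over all probe sets for single ones. The median SE was 0.08 in a line. On arrays, their number limits the precision. Alternatives were quantile normalization, array medians set to 0, the median of probe sets, no _x_at or _s_at probe sets, each line alone, array weights, a replicate block, 18S or spike level as a covariate, and leaving out each array.

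The genes and lists were chosen with earlier results of these data known. Every measured gene is named; those called in any comparison, and CYLD, have every array's value, and up to 4 called genes with the smallest p are named per wider list and line.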

Additional observations from a re-analysis of the deposited data

Results flagged for a closer look

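The following 8 genes responded differently to SAHM1 in the 2 lines, by limma's test of the difference (HPB-ALL minus KOPT-K1, log2). The response of REL was higher in HPB-ALL by 0.61, and without 1 array at a time this call held in 12 of 12 fits. The same held for MALT1 at 0.48, for CFLAR at 0.47 and for NFKBIA at -0.64, but without _x_at and _s_at probe sets CFLAR was at 0.20 and NFKBIA at -0.54, neither called. CD83, at -0.46, lost the call without HPB-ALL DMSO array 3 or SAHM1 array 2, at -0.41 and -0.42. NFKBIZ, at 0.46, kept it without KOPT-K1 DMSO array 2 or 3, KOPT-K1 SAHM1 array 1 or HPB-ALL DMSO array 3 and lost it without any of the 8 others, at 0.37 to 0.47. CHUK, at 0.35, kept it without KOPT-K1 DMSO array 3, KOPT-K1 SAHM1 array 2 or HPB-ALL DMSO array 3 and lost it without any of the 9 others, at 0.28 to 0.38. CYLD, at 0.32, kept it without KOPT-K1 DMSO array 3, KOPT-K1 SAHM1 array 3 or HPB-ALL DMSO array 1 and lost it without any of the 9 others, at 0.27 to 0.34. Groups of 3 arrays are too small for a test of single outlying arrays.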

How the results depend on the processing

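Quantile normalization left 0 of the 33 genes called in KOPT-K1, 0 in HPB-ALL, 1 (TNFAIP3) in the mean and 0 in the difference between lines. The shares of all genes called there were 0.688%, 2.11%, 1.49% and 1.07%. On these ratios the SAHM1 arrays were spread more widely than the DMSO arrays, and quantile normalization removes that difference in width. The differences called in a line in the main fit were then 0.59 to 0.98 of their reported size. That setting therefore cannot separate a correction between arrays from a loss of the response. Without _x_at and _s_at probe sets, 24 of the genes were measured and 1, 1, 1 and 3 were called. The shares of all genes called there were 14.6%, 5.96%, 7.26% and 13.3%. RELA, CHUK, IKBKB, NFKBIZ, TNFAIP3 and IER3, each called in a line in the main fit, had only probe sets with these suffixes. Their calls could not be checked in that setting. The HPB-ALL median was -0.024, and LTB in the mean of both lines turned to -0.082. With the 18S level in the fit 0 were called in HPB-ALL, 2 in the mean and 0 in the difference. The shares of all genes were 0.263%, 3.8% and 1.64%. The HPB-ALL median was 0.031, and 52 of all genes were called in HPB-ALL there. With the spike level 1, 2, 3 and 0 were called, beside 3.59%, 5.21%, 9.77% and 1.27% of all genes. KOPT-K1 fitted alone gave 5, beside 12.8% of all genes. RELA, CHUK, IER3 and CD83 lost their KOPT-K1 calls there, with limma adjusted p from 0.0743 to 0.0893. Their differences stayed the same, so those calls passed only with the spread shared over both lines. The 18S level in HPB-ALL and the spike level in KOPT-K1 cannot be fully told apart from treatment. The causes were not tested.

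Leaving out 1 array gave 6 to 9 calls in KOPT-K1 and 1 to 6 in HPB-ALL. In the mean it gave 3 to 6, and in the difference 4 to 8. The shares of all genes called in these fits were 12.8% to 19.6%, 4.62% to 10.2%, 7.75% to 11.1% and 11.8% to 17%. The medians were -0.095 (without KOPT-K1 SAHM1 array 1) to -0.013 (without DMSO array 2) in KOPT-K1. In HPB-ALL they were -0.055 to -0.011 (without HPB-ALL SAHM1 array 2). The HPB-ALL count was 1 without SAHM1 array 2, 2 without DMSO array 2 or SAHM1 array 1, and 3 without DMSO array 3 or SAHM1 array 3. In those fits 4.62% to 5.68% of all genes were called in HPB-ALL, beside 9.34% with all arrays. The mean count was 3 or 4 without KOPT-K1 DMSO array 1 or SAHM1 array 3, or HPB-ALL DMSO array 3 or SAHM1 array 1 or 2. The difference count was 4 or 5 without KOPT-K1 DMSO array 1, HPB-ALL DMSO array 2 or any 1 HPB-ALL SAHM1 array. Of the 30 calls of single genes, 17 were lost in at least 1 such fit, and 0 turned sign.

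Same-numbered DMSO and SAHM1 arrays did not deviate together (correlations of -0.01 to 0.07 in KOPT-K1 and -0.05 to 0.05 in HPB-ALL), so the numbers do not pair them. With a replicate block 8, 4, 6 and 6 genes of the list were called, beside 15.5%, 6.38%, 8.56% and 13.2% of all genes.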
